A study of Mus musculus with 47 samples.

Results

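The liver response of NZO/HlLtJ females to diet was measured in 8 RNA-seq libraries, the ones whose titles code the mice as NZO/HlLtJ and F, out of 47 libraries in the series. New Zealand Obese mice, the strain coded NZO/HlLtJ, are an inbred line with many alleles for obesity and diabetes. Of the 8 libraries, 4 came from mice fed a control diet of 10% fat and 4 from mice whose food, high in fat and sugar, held 44% fat. Both diets had added fiber, all animals were wild type with no other treatment, feeding began at 6 weeks of age and liver was collected at 15 weeks. The study's question is whether the effect of such a diet depends on genotype in mice that model type 2 diabetes. The female NZO/HlLtJ response is set against NZO/HlLtJ males and females of C57BL/6J, the common laboratory strain, and of CAST/EiJ, a wild-derived strain. Each of these had 4 libraries per diet and the same feeding schedule. The spread behind the p-values was estimated on all 47 libraries, in 12 groups of strain, sex and diet that include C57BL/6J and CAST/EiJ males. It is thus not the spread of the 8 libraries alone. Whether every library comes from its own animal is not stated in the labels, so part of this spread may be technical.

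A liver that takes in more energy than it burns can store the surplus as triglyceride. In de novo lipogenesis, carbon from glucose and fructose passes through glycolysis to citrate, ATP citrate lyase cuts the citrate to acetyl-CoA, and acetyl-CoA carboxylase and fatty acid synthase build it into palmitate, which elongases and desaturases then modify. Acyltransferases join the fatty acids to glycerol, and the triglyceride moves into lipid droplets. Insulin, acting through SREBP-1c, and sugar, acting through ChREBP, both raise transcription of these enzymes in liver.

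The 8 libraries held 34 to 47.8 M counts each, and 16650 genes passed the filter on low counts. Levels are given as CPM, counts scaled to a common library size with TMM factors, and differences as the log2 fold change of 44% over 10% fat with its standard error (SE) from an edgeR quasi-likelihood fit across all genes. Genes with an adjusted p (Benjamini-Hochberg, over all tested genes) under 0.05 are named as called. The labels fitted the data: Xist, the RNA of the inactive X chromosome, ran from 787 to 1350 CPM, the Y-linked Uty did not exceed 0.0214 CPM, and the hepatocyte product Alb ran from 76400 to 109000 CPM. Among the 8 libraries, 10% fat replicate 3 stood apart on the first principal component, at -47.6 against -12.3 to 37.6 for the others, and 44% fat replicate 1, at -5.64, lay among the 10% fat libraries. The sample identifiers fall into 3 consecutive runs that partly follow diet. In each diet group, replicates 1 and 2 belong to run 1, whereas 10% fat replicates 3 and 4 belong to run 2 and 44% fat replicates 3 and 4 to run 3. What the runs stand for is not given in the labels.

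On the 44% fat diet, 81 of 16650 genes changed (0.486%), 75 higher (0.45%) and 6 lower (0.036%). The genes that rose included enzymes of fatty acid and glycerolipid synthesis (Acly, Gpam, Scd2, Mogat1), lipid droplet and adipogenic genes (Fitm1, Pparg), and steps of glycolysis and fructose use (Eno1, Gpi1, Gapdh, Tkfc). The largest called rise was that of Gprc5b, an orphan G protein-coupled receptor, and the largest called fall that of Hsd3b1, a steroid dehydrogenase. In 51 of the higher and 5 of the lower genes the fold was at least 1.5, and at an unadjusted p under 0.05 there were 1865 genes. Without any test, the 4 and 4 values did not overlap in 873 genes that were higher on 44% fat (5.24% of those tested) and in 463 that were lower (2.78%). The called genes were among these in 72 of 75 and 5 of 6 cases. In bulk liver, fewer cells of a type and less RNA per cell cannot be told apart.

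**Figure D1:**
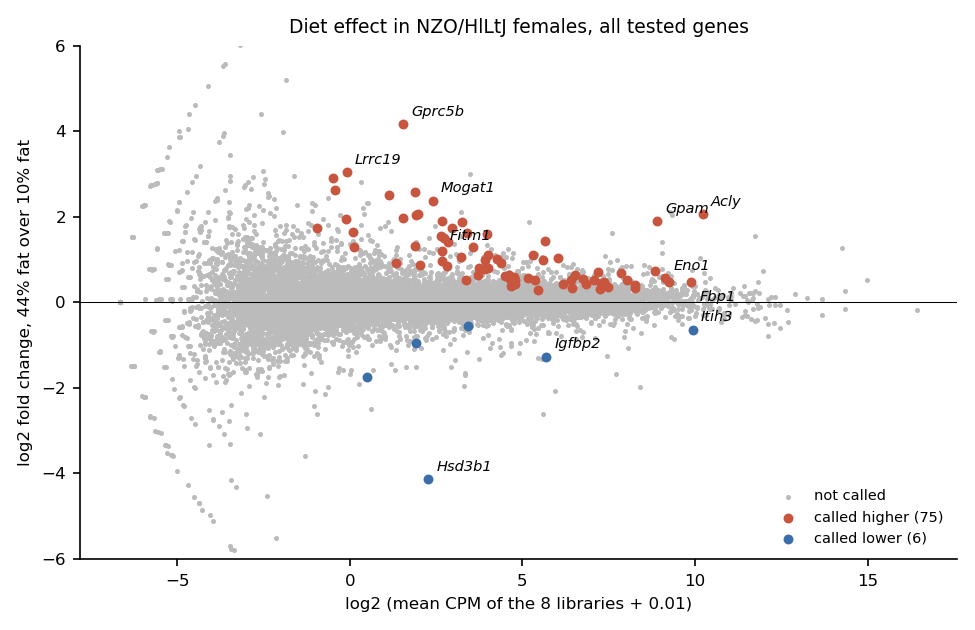
Diet effect in NZO/HlLtJ females for every tested gene: the horizontal axis is log2 of the mean CPM of the 8 libraries plus 0.01, the vertical axis the log2 fold change of 44% over 10% fat, grey points genes that were not called. The 75 called higher genes (red) far outnumber the 6 called lower ones (blue), and 1 uncalled gene beyond 6 on the log2 scale is not drawn.

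The rise was uneven among the 44% fat libraries. In 56 of the 75 higher genes, 44% fat replicate 1 had the lowest value of its group, against 3 to 8 genes for each of the other 3 libraries. Its median log2 ratio to the 10% fat mean over those 75 genes was 0.55, against 0.84 to 0.94 in the others. Without that library 172 genes were called, and without any single other library of the 8 the count ran from 17 (without 44% fat replicate 4) to 48 (without 10% fat replicate 1). Of the 81 genes, 12 were called in all 8 of these refits and none changed sign in any of them. The 12 are Fitm1, Tbc1d31, Ttc23, Gprc5b, Col5a3, Clstn3, Hsd3b1, Ghitm, Aim1l, Parva, Them7 and 9130409I23Rik, and every other called gene lost its call in at least 1 refit. These refits kept the libraries of the other groups. With the 8 NZO/HlLtJ female libraries fitted alone, Gprc5b, Clstn3, Ghitm and Aim1l of the 12 were not called (adjusted p = 0.0815, 0.0536, 0.0546 and 0.0739).

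The 81 genes were chosen on all 8 libraries, so their sign and p within a part of these libraries are largely fixed by that choice and are given as a description. With groups split by run in a fit of all 47 libraries, 15 residual degrees of freedom were left, against 35 in the main fit. In that fit none of the 81 was called within run 1 (2 against 2 libraries) after adjustment. All 81 had the sign of the full comparison there and 74 an unadjusted p under 0.05, while edgeR called 0 of all genes with 1072 at an unadjusted p under 0.05. The median size of the log2 change of the 81 genes was 0.793 within run 1 and 1.03 between the run 3 libraries on 44% fat and the run 2 libraries on 10% fat, against 0.923 over all 8. The log2 fold changes within run 1 and between runs 3 and 2 were 1.79 and 2.01 for Fitm1, 1.81 and 2.34 for Acly, 1.61 and 2.19 for Gpam, and -4.47 and -3.94 for Hsd3b1. With the run as a covariate, 50 genes were called over all, 44 of them from the 81. Among the genes described here, Acly, Gpi1, Gapdh, Fbp1, Phkb, Slc25a10, Igfbp2, Igfbp5, Itih3, Lamb3 and Lgals1 lost their call with this covariate. So did Cers2, Smpd3, Slc22a3, Abcg2, Dna2, Cyp2c44, Cyp4v3, Gm14418 and Gm14403. The adjusted p of these genes ran from 0.0568 (Igfbp2) to 0.106 (Slc25a10 and Itih3). That of Acly was 0.0801.

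**Figure D2:**
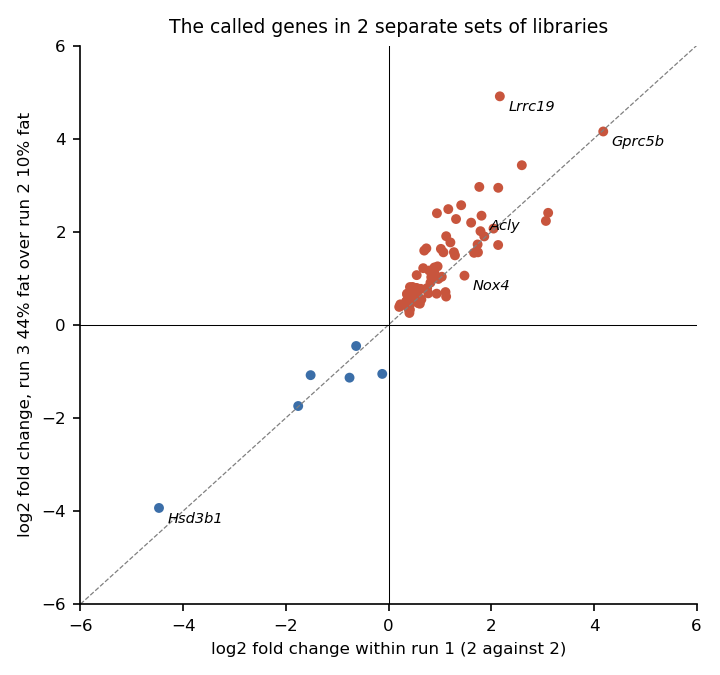
Log2 fold change of the 81 called genes within identifier run 1 (horizontal, 2 against 2 libraries) and between the 44% fat libraries of run 3 and the 10% fat libraries of run 2 (vertical), red for genes higher and blue for genes lower on 44% fat. All points lie in the upper right or lower left quadrant, a position largely fixed because the genes were called on the same 8 libraries, and the dashed line marks equal change.

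Among the genes of triglyceride assembly and lipid droplets, 3 of 28 rose and none fell, against 0.486% of all genes called, and the median log2 fold change of the 28 was 0.19 against 0.00146 over all genes. Fitm1 encodes an endoplasmic reticulum protein that binds triglyceride and promotes droplet formation (chromosome 14, 55575617 to 55576952, GRCm38). Its level was 2.79, 2.66, 2.87 and 2.33 CPM in the 4 libraries on 10% fat and 7.56, 11.3, 9.66 and 11.3 CPM in those on 44% fat. Every 44% fat library exceeded every 10% fat library by a wide margin, and the log2 fold change was 1.90 (SE 0.25, adjusted p = 1.63e-04), the smallest p of the comparison.

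Mogat1 encodes monoacylglycerol acyltransferase 1, which makes diacylglycerol. Its level was 1.90, 2.16, 1.57 and 1.21 CPM on 10% fat and 3.07, 10.8, 8.07 and 13.6 CPM on 44% fat. The groups did not overlap, although 44% fat replicate 1 lay much nearer to the controls than the others, and the log2 fold change was 2.38 (SE 0.52, adjusted p = 0.0224). Gpam encodes the mitochondrial glycerol-3-phosphate acyltransferase, which catalyses the first step of glycerolipid synthesis. It measured 258, 183, 118 and 241 CPM on 10% fat and 336, 1008, 664 and 982 CPM on 44% fat. Again replicate 1 was the low library of the 44% fat group, and the log2 fold change was 1.90 (SE 0.41, adjusted p = 0.0202). The call of Gpam was lost when 10% fat replicate 2, 3 or 4 or 44% fat replicate 2 or 4 was left out (adjusted p up to 0.0965), and that of Mogat1 without any library except 44% fat replicates 1 and 3 (up to 0.107).

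Genes of the same list that did not pass the test included Cidec, a droplet fusion protein, at 0.558 ± 0.367 and 1.91 ± 0.734 CPM (SD, n = 4 per group; log2 fold change 1.80, SE 0.82, adjusted p = 0.397). Cidea, its relative, was at 0.0542 ± 0.0531 and 0.134 ± 0.135 CPM, with groups that overlapped. Plin2, the main coat protein of liver droplets, had a log2 fold change of 0.00 (SE 0.33), with 521 ± 320 CPM on 10% fat and 522 ± 102 CPM on 44% fat. Pnpla3, a lipase and acyltransferase homologue chosen after its values were seen, measured 95.9 CPM on average on 10% fat and 293 CPM on 44% fat without overlap, but its adjusted p was 0.457. Among 13 genes of fatty acid uptake and binding none was called: the fatty acid transporter Cd36 had a log2 fold change of 0.75 (SE 0.34, adjusted p = 0.4), and Fabp4, a fatty acid carrier of adipocytes and macrophages, one of 1.26 (SE 0.32, adjusted p = 0.056).

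**Figure D3:**
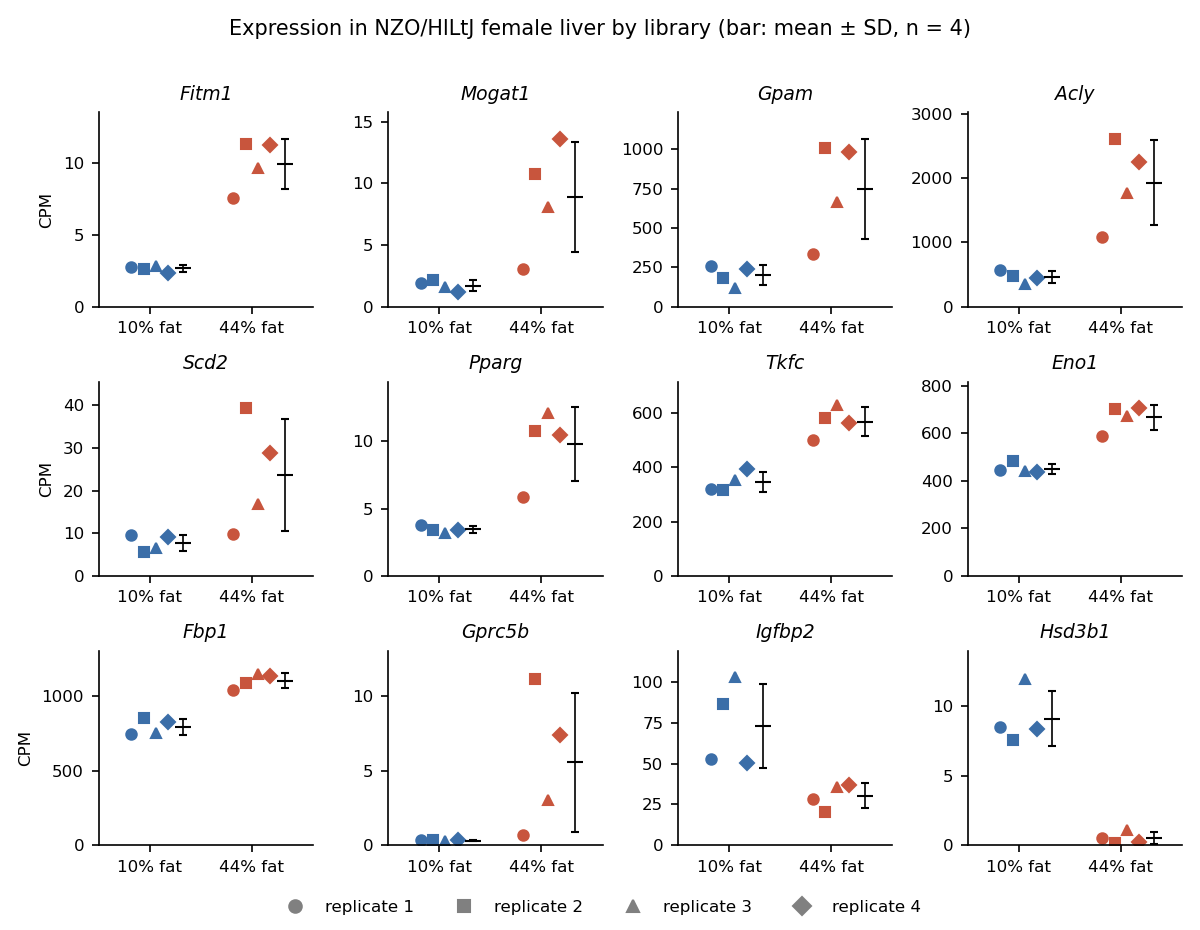
CPM in each of the 8 NZO/HlLtJ female libraries for 12 called genes, on linear axes from 0, with marker shape giving the replicate and the black bar the mean ± SD of 4 libraries. In all 10 higher genes shown 44% fat replicate 1 (circle) is the lowest of its group, against 56 of all 75 higher genes. Igfbp2 and Hsd3b1 are lower in every 44% fat library.

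Of 25 genes of fatty acid synthesis 2 rose and none fell, against 0.486% of all genes called. The median log2 fold change of the 25 was 0.61, and 24 of them were above 0, against 50.3% of all genes. In 8 of the 25 the 4 values on 44% fat all exceeded the 4 on 10% fat, against 5.24% of all genes. The summed level of the list was 24200, 23500, 11600 and 27500 CPM on 10% fat. On 44% fat it was 19300, 52500, 54600 and 61800 CPM, so replicate 1 was below 10% fat replicates 1, 2 and 4. Acly encodes ATP citrate lyase, which makes cytosolic acetyl-CoA from citrate. Its level was 573, 479, 353 and 440 CPM on 10% fat and 1082, 2608, 1775 and 2249 CPM on 44% fat. All 44% fat libraries were above all controls, replicate 1 least, with a log2 fold change of 2.06 (SE 0.50, adjusted p = 0.0442). Scd2, a stearoyl-CoA desaturase, measured 9.70, 5.69, 6.52 and 9.03 CPM on 10% fat and 9.74, 39.3, 16.7 and 28.8 CPM on 44% fat. Here 44% fat replicate 1 barely exceeded the highest control, and the log2 fold change was 1.61 (SE 0.33, adjusted p = 0.0126).

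The call of Acly held in 1 of 8 refits with a library left out, that without 44% fat replicate 1, and its adjusted p in the other 7 reached 0.153; with the run as a covariate it was 0.0801. That of Scd2 was lost without 10% fat replicate 2 or 3 or 44% fat replicate 2 or 4 (adjusted p up to 0.112). Other enzymes of the path did not pass the test. Fasn, fatty acid synthase, was at 1736 ± 819 and 5113 ± 1950 CPM (SD, n = 4 per group) with a log2 fold change of 1.56 (SE 0.55, adjusted p = 0.206) and no overlap. Scd1, the major liver desaturase, had one of 1.26 (SE 0.53, adjusted p = 0.332), with groups that overlapped. Chosen after their values were seen, 4 more members had groups that did not overlap: the elongase Elovl6 (2.12, SE 0.58, adjusted p = 0.0805), the lipogenic regulator Thrsp (2.04, SE 0.60, adjusted p = 0.116), acetyl-CoA carboxylase Acaca (1.42, SE 0.38, adjusted p = 0.068) and the NADPH source Pgd (1.02, SE 0.26, adjusted p = 0.0578). Srebf1, the gene that encodes SREBP-1c, measured 393 ± 205 and 441 ± 33.9 CPM (log2 fold change 0.17, SE 0.32, adjusted p = 0.924). This level is that of the gene, not of a single transcript.

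Pparg (chromosome 6, 115360951 to 115490399) encodes the adipogenic nuclear receptor PPAR gamma. It was the called gene among 18 nuclear receptor genes, against 0.486% of all genes called. It measured 3.80, 3.40, 3.22 and 3.38 CPM on 10% fat and 5.85, 10.8, 12.1 and 10.5 CPM on 44% fat. The controls were tightly grouped, every 44% fat library was higher, and the log2 fold change was 1.5 (SE 0.33, adjusted p = 0.0202). Leaving out any library other than replicate 1 of either diet ended this call (adjusted p up to 0.0787). Of 5 tested adipocyte markers none was called, Adipoq was at most 0.6 CPM and Cfd at most 0.193 CPM. Their summed level ran from 859 to 1300 CPM on 10% fat and from 1150 to 2110 CPM on 44% fat, nearly all of it Car3, which averaged 1116 and 1660 CPM.

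Of 21 genes of glycolysis and fructose use 4 rose and none fell, against 0.486% of all genes called. The median log2 fold change of the 21 was 0.37, and 20 were above 0, against 50.3% of all genes. The groups did not overlap in 11 of the 21, against 5.24% of all genes in that direction. Tkfc encodes triokinase, which phosphorylates the glyceraldehyde made from fructose. It measured 319, 315, 353 and 393 CPM on 10% fat and 501, 582, 628 and 564 CPM on 44% fat. No 44% fat library came near the controls, and the log2 fold change was 0.72 (SE 0.16, adjusted p = 0.0264). The enolase Eno1 measured 447, 483, 440 and 437 CPM on 10% fat and 589, 702, 672 and 706 CPM on 44% fat. Its change was smaller but the groups were as clearly apart (log2 fold change 0.56, SE 0.12, adjusted p = 0.0126).

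Gpi1, glucose-6-phosphate isomerase, rose by 0.68 on the log2 scale (SE 0.16, adjusted p = 0.0405). Gapdh, glyceraldehyde-3-phosphate dehydrogenase, rose by 0.53 (SE 0.13, adjusted p = 0.0481). Both are near the threshold, and each was called in 1 of 8 refits with a library left out, that without 44% fat replicate 1 (adjusted p in the other 7 up to 0.167 and 0.189). With the run as a covariate neither was called (0.0686 and 0.104). Tkfc was called in 2 of 8, those without 10% fat replicate 4 or 44% fat replicate 1 (up to 0.0972), and Eno1 in 5 of 8, not without 10% fat replicate 4 or 44% fat replicate 2 or 4 (up to 0.0613). The fructokinase Khk, chosen after its values were seen, was short of the threshold (0.67, SE 0.18, adjusted p = 0.0724).

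Gluconeogenesis genes gave 1 call of 15 and glycogen genes 1 of 13, against 0.486% of all genes called. Fbp1, fructose-1,6-bisphosphatase, measured 743, 850, 748 and 822 CPM on 10% fat and 1036, 1085, 1143 and 1135 CPM on 44% fat. The libraries within a diet differed little, and the log2 fold change was 0.48 (SE 0.11, adjusted p = 0.0242). It was the called gene of 15. Pck1 and G6pc, which encode the enzymes at the start and end of gluconeogenesis, had log2 fold changes of 0.04 (SE 0.38) and 0.68 (SE 0.40, adjusted p = 0.567). Phkb, a subunit of glycogen phosphorylase kinase, rose by 0.44 (SE 0.10, adjusted p = 0.0281), and 6 of the 13 glycogen genes had groups that did not overlap, all higher on 44% fat, against 5.24% of all genes in that direction. Slc25a10, the mitochondrial dicarboxylate carrier, rose from 111 ± 6.6 to 180 ± 32 CPM (SD, n = 4 per group; log2 fold change 0.70, SE 0.17, adjusted p = 0.0489). With the run as a covariate Fbp1, Phkb and Slc25a10 were not called (adjusted p = 0.0686, 0.0734 and 0.106).

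**Figure D4:**
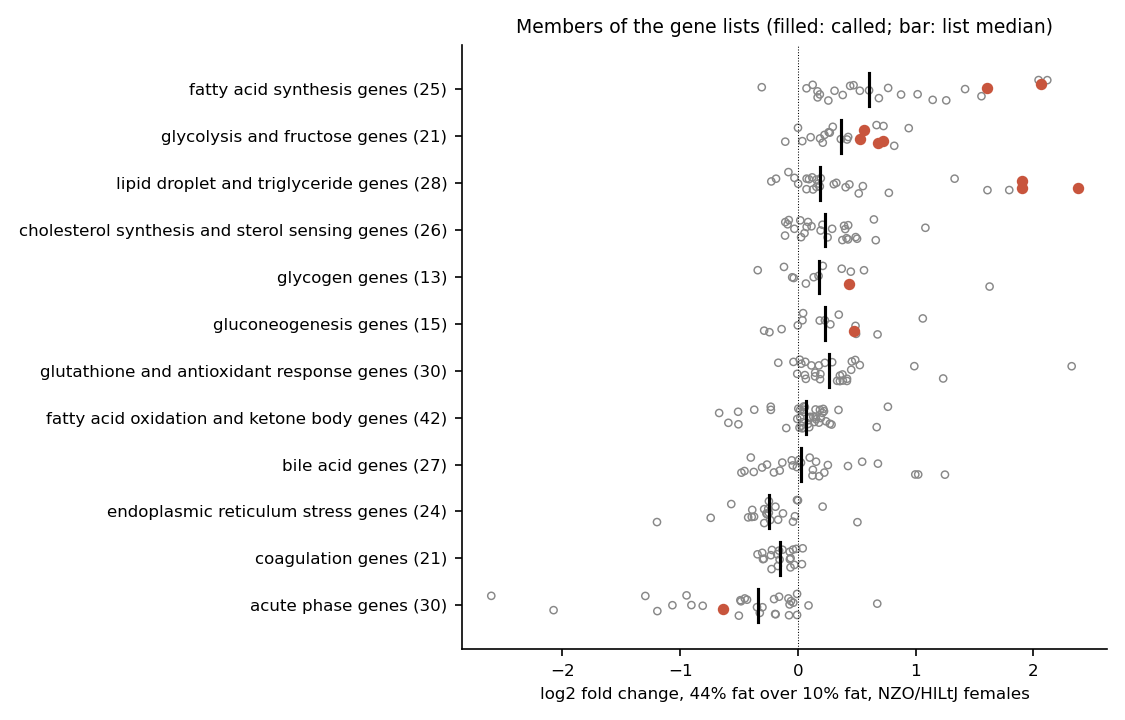
Log2 fold change of 44% over 10% fat in NZO/HlLtJ females for each tested member of 12 gene lists (number of members in parentheses), with called members filled and the list median as a black bar; the vertical scatter within a list has no meaning. The members of fatty acid synthesis reach above 2 with a median of 0.61, whereas 28 of the 30 acute phase members lie below 0. In both of these lists the summed levels of the libraries overlapped between the diets.

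Acly, Gpam and Tkfc all rose, and the 250 bases before their RefSeq starts are printed from the GRCm38.p6 reference, as an example each of acetyl-CoA supply, glycerolipid synthesis and fructose use. The reference is the C57BL/6J sequence, not that of NZO/HlLtJ. Capitals mark every match, on either strand, to the E-box CACGTG, the CCAAT box, the sterol response element TCACNCCAC or the GC box GGGCGG. All 3 genes lie on the minus strand, with windows at chr11:100528001-100528250, chr19:55127239-55127488 (the first of 2 listed starts of Gpam) and chr19:10604259-10604508. The windows of Acly and Tkfc adjoin the gene of the deposited annotation. That of Gpam does not, since the annotated gene spans 55069734 to 55099451, and the window lies well upstream of that start.
Acly: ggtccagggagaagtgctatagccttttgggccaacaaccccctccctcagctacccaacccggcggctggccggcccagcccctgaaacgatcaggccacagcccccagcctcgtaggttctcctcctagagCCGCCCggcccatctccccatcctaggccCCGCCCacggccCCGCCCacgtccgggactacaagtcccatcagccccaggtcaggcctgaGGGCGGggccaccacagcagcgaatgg
Gpam: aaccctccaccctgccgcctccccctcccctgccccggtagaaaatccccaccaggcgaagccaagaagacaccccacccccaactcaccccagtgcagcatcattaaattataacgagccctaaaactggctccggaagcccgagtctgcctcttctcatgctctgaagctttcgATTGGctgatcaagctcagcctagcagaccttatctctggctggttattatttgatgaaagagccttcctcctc
Tkfc: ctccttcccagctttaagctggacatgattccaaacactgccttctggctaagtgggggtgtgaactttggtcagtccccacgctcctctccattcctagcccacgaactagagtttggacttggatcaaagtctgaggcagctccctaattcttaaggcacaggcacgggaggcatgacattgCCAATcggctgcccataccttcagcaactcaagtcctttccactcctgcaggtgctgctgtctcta
The Acly sequence held 4 GC boxes, and those of Gpam and Tkfc 1 CCAAT box each. Over the 55 higher genes with an entry, which have 76 listed promoters, the GC box was in 51.3% and the CCAAT box in 42.1%, against 32.7% and 33.8% of 32851 promoters of the same length. The E-box was in 2.63% against 6.02%, and the sterol element, found in 1.05% of all, was in none of the 76. The 32851 promoters were not limited to genes tested here, so the shares are not set against genes expressed in liver. Whether the higher genes differ from other tested genes in these motifs was not tested. Motif matches describe the letters in this window.

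Outside these lists, the called genes were of many kinds. Gprc5b (chromosome 7, 118972047 to 118995211) measured 0.32, 0.323, 0.254 and 0.322 CPM on 10% fat and 0.652, 11.2, 3.04 and 7.37 CPM on 44% fat. Its 44% fat libraries were spread over a wide range, all above the controls, and the log2 fold change was 4.17 (SE 0.69, adjusted p = 0.00223). The same uneven rise was seen in Clstn3, a calsyntenin, which measured 1.62, 1.76, 1.14 and 1.39 CPM on 10% fat and 2.05, 7.02, 7.43 and 7.67 CPM on 44% fat (log2 fold change 2.03, SE 0.35, adjusted p = 0.00302). Kbtbd11, a Kelch-repeat protein, was lifted most in 44% fat replicate 4, with 2.25, 3.08, 4.09 and 8.98 CPM against 0.82 to 1.54 CPM on 10% fat (1.97, SE 0.36, adjusted p = 0.00575).

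Of 28 collagen and stellate cell markers none was called, with a median log2 fold change of 0.18. Their summed level ran from 517 to 623 CPM on 10% fat and from 547 to 629 CPM on 44% fat. Outside that list, Col5a3, a chain of type V collagen, measured 2.81, 4.32, 4.95 and 4.14 CPM on 10% fat and 9.59, 16.3, 20.2 and 13.6 CPM on 44% fat. All 44% fat values lay well above the highest control, and the log2 fold change was 1.88 (SE 0.32, adjusted p = 0.00302). Lamb3, a laminin chain, Gpc1, a glypican, and Lgals1, a galectin, rose by 1.20, 1.54 and 1.40 on the log2 scale (adjusted p = 0.0198, 0.0178 and 0.0489). With the run as a covariate Lamb3 and Lgals1 were not called (0.0591 and 0.0686). The part of stellate cells in these changes was not tested.

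Of 42 genes of fatty acid oxidation and ketone body synthesis none was called, with a median log2 fold change of 0.07. Of 26 genes of cholesterol synthesis and sterol sensing none was called either, with a median of 0.23. Of single genes outside these lists, named after their values were seen, Chpt1, a choline phosphotransferase of phosphatidylcholine synthesis, rose by 0.63 (SE 0.12, adjusted p = 0.0065), and Cers2, the ceramide synthase of very long chains, by 0.33 (SE 0.08, adjusted p = 0.0283). Smpd3, a neutral sphingomyelinase, had a larger change (2.50, SE 0.57, adjusted p = 0.0314) but groups that overlapped, since 44% fat replicate 1 (1.04 CPM) was below 10% fat replicate 3 (1.19 CPM). Cers2 and Smpd3 were not called with the run as a covariate (0.0737 and 0.0779).

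Several called transporters and enzymes belong to none of the lists and were picked from the calls. The water channel Aqp4 rose by 1.62 on the log2 scale (SE 0.32, adjusted p = 0.0164), the organic cation transporter Slc22a3 by 1.06 (SE 0.26, adjusted p = 0.0442) and the efflux pump Abcg2 by 0.51 (SE 0.12, adjusted p = 0.0314). Hnmt, histamine N-methyltransferase, rose by 0.81 (SE 0.15, adjusted p = 0.00586) and the quinone reductase Nqo2 by 0.55 (SE 0.11, adjusted p = 0.00803). Ugt3a1 (0.46, SE 0.10, adjusted p = 0.0189) was the called member of 27 sulfotransferase and glucuronosyltransferase genes, against 0.486% of all genes called. None of the 48 genes on the xenobiotic oxidation list was called. Outside that list, the p450 genes Cyp2c44 and Cyp4v3 were called higher. They rose by 0.64 (SE 0.15, adjusted p = 0.0264) and 0.53 (SE 0.12, adjusted p = 0.0267). With the run as a covariate neither was called (0.0686 for each). The p450 Cyp4a12a, which is abundant in male mouse liver, was at 0.3 ± 0.209 and 2.18 ± 1.78 CPM without overlap (SD, n = 4 per group; 2.82, SE 0.70, adjusted p = 0.0552), and reads can be shared with its near-identical copies.

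Of the 6 lower genes, Hsd3b1 changed most. It encodes a 3-beta-hydroxysteroid dehydrogenase, and its cluster of close relatives on chromosome 3 means that shared reads could be split differently. It measured 8.51, 7.58, 12 and 8.33 CPM on 10% fat and 0.532, 0.173, 1.11 and 0.214 CPM on 44% fat. Every 44% fat library was far below every control, and the log2 fold change was -4.14 (SE 0.68, adjusted p = 0.00302). In C57BL/6J females Hsd3b1 had a log2 fold change of -2.46 and was not called (adjusted p = 0.15), and in CAST/EiJ females, at mean levels of 0.172 and 0.0456 CPM on 10% and 44% fat, one of -1.77 (adjusted p = 0.72). In NZO/HlLtJ males it did not exceed 0.0504 CPM in any library, too low for a fold.

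Igfbp2, an insulin-like growth factor binding protein made by hepatocytes, measured 52.7, 86.5, 103 and 50.4 CPM on 10% fat and 28.2, 20.3, 35.7 and 36.6 CPM on 44% fat. The groups did not overlap (log2 fold change -1.27, SE 0.28, adjusted p = 0.0242). Igfbp2 was the called gene among 14 of insulin signalling, against 0.486% of all genes called. The call was lost without 10% fat replicate 2 or 3 or 44% fat replicate 2, 3 or 4 (adjusted p up to 0.143) and with the run as a covariate (0.0568). Igfbp5, another binding protein, lies 5458 bases from Igfbp2 on chromosome 1 and went the other way. It measured 13.9, 13.4, 10.3 and 19.9 CPM on 10% fat and 32.6, 26.4, 21.1 and 28.2 CPM on 44% fat (log2 fold change 0.91, SE 0.20, adjusted p = 0.0261). The other lower genes were Aph1b, a gamma-secretase subunit (-0.94), Dna2, a nuclease and helicase (-0.55), Itih3 and the unnamed gene RP23-366O14.5 (-1.75).

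Itih3, an inter-alpha-trypsin inhibitor heavy chain, was the called member of 30 acute phase genes, against 0.486% of all genes called. It measured 914, 846, 1380 and 1606 CPM on 10% fat and 936, 680, 795 and 643 CPM on 44% fat. The groups overlapped, since 10% fat replicates 1 and 2 were within the 44% fat range, and the high controls were replicates 3 and 4 (log2 fold change -0.64, SE 0.15, adjusted p = 0.0442). Without 10% fat replicate 3 or 4 or 44% fat replicate 2, 3 or 4 it was not called (adjusted p up to 0.233), nor with the run as a covariate (0.106), and its log2 fold change was -0.12 within run 1 against -1.06 between runs 3 and 2. Over the 30 genes the median log2 fold change was -0.34 and 2 were above 0, against 0.00146 and 50.3% over all genes. Their summed level was 36300, 35400, 46900 and 51800 CPM on 10% fat and 36500, 30800, 35800 and 29200 CPM on 44% fat. These sums overlapped, and the high libraries were 10% fat replicates 3 and 4, both of run 2. The fibrinogen chains Fgb, Fga and Fgg, chosen after their values were seen, had log2 fold changes of -0.50, -0.49 and -0.43 (adjusted p = 0.0976, 0.109 and 0.17). Of 21 coagulation genes none was called and 2 were above 0, with a median of -0.15. Their summed level ran from 14500 to 17300 CPM on 10% fat and from 13000 to 15200 CPM on 44% fat, with overlap. Saa1, the serum amyloid gene that rises most in inflammation, was high in 10% fat replicate 4 alone, with 198 CPM against 10.1 to 27.7 CPM in the other controls.

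Several gene groups that are often read in fatty liver gave no calls. Of 24 endoplasmic reticulum stress genes none was called, with a median of -0.25 and 3 above 0, against 50.3% of all genes. The chaperone cofactor Sdf2l1 was at 30.4 ± 9.59 and 13.3 ± 4.9 CPM without overlap (SD, n = 4 per group; -1.20, SE 0.44, adjusted p = 0.244). Of 27 bile acid genes none was called. Cyp7a1, the rate-limiting enzyme of bile acid synthesis, had a log2 fold change of 0.10 (SE 0.52), and Cyp8b1, the sterol 12-alpha-hydroxylase, one of 1.00 (SE 0.31, adjusted p = 0.13) with no overlap. Slc10a2, the bile acid transporter of ileum and bile duct, was at 14.1 ± 4.31 and 33.5 ± 7.58 CPM, also without overlap (1.25, SE 0.36, adjusted p = 0.11). Of 30 glutathione and antioxidant genes none was called, but 27 were above 0, against 50.3% of all genes, with a median of 0.26. The hepatokine Fgf21 (0.05, SE 0.60), the leptin receptor Lepr (-0.52, SE 0.40) and the hepcidin gene Hamp (-1.67, SE 0.88, adjusted p = 0.493) did not pass either. Apoa4, a lipoprotein gene, was at 748 ± 182 and 1523 ± 534 CPM without overlap (1.03, SE 0.44, adjusted p = 0.341).

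Immune and vascular markers gave no calls in any of their lists. Of 13 Kupffer cell markers the scavenger receptor Marco was closest, at 15.7 ± 14.8 and 4.04 ± 1.4 CPM with overlap (SD, n = 4 per group; -1.96, SE 0.50, adjusted p = 0.0578), and the summed level of the list ran from 541 to 783 CPM on 10% fat and from 534 to 688 CPM on 44% fat. Of 17 markers of monocytes and lipid-associated macrophages the median log2 fold change was -0.06. Vwf, an endothelial gene, was at 10.1 ± 0.684 and 15.6 ± 1.77 CPM without overlap (0.62, SE 0.16, adjusted p = 0.0558). The pancreatic acinar gene Cpa1 did not exceed 0.568 CPM in these libraries.

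The female response was then set against that of NZO/HlLtJ males, in which 446 genes were called (2.68%), 259 higher (1.56%) and 187 lower (1.12%). Of the 81 female genes, 27 were called in males too, which is 33.3% of the female and 6.05% of the male calls, and 70 had the same sign. The 75 genes higher in females had a median log2 fold change of 0.91 in females and 0.41 in males. In males, Mogat1 rose by 1.92 (adjusted p = 0.032), and Fitm1 had a log2 fold change of 0.76 (adjusted p = 0.0796). The female minus male differences, 0.46 for Mogat1 and 1.14 for Fitm1, were not called (adjusted p = 0.971 and 0.365). Of the oxidation genes none was called in females and 18 of 42 in males, all higher. The difference of these counts was not tested as such, and no oxidation gene was called for sex by diet.

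The fatty acid synthesis list had medians of 0.61 in females and -0.21 in males. Male Acly values were 955, 1057, 544 and 2825 CPM on 10% fat and 319, 1243, 2152 and 641 CPM on 44% fat. Each male group thus spanned a wide range, and the male log2 fold change was -0.30. The female minus male difference was 2.37 with an adjusted p of 0.299, so a difference between the sexes was not shown for Acly. For Gpam, male values were 430, 446, 364 and 869 CPM on 10% fat and 115, 391, 774 and 209 CPM on 44% fat, and the difference was 2.40 (adjusted p = 0.156). No gene of the 81 was called for sex by diet, where the smallest adjusted p among them was 0.0626.

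**Figure D5:**
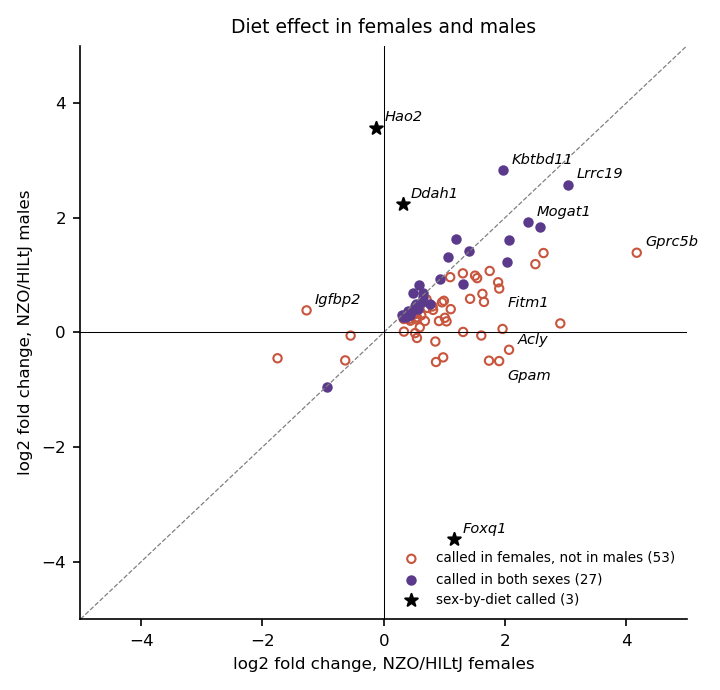
Log2 fold change of 44% over 10% fat in NZO/HlLtJ females (horizontal) and males (vertical) for 80 of the 81 genes called in females, and for the 3 genes called for sex by diet (stars). Filled points are the 27 genes called in both sexes, open points the others; Hsd3b1 is left out because it was too low in males for a fold, and the dashed line marks equal change.

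Over all genes the diet effect differed between NZO/HlLtJ females and males in 3 genes (0.018%). Foxq1, a forkhead transcription factor, measured 3.41, 11, 6.09 and 7.04 CPM in females on 10% fat and 12.3, 8.52, 19.9 and 20.4 CPM on 44% fat. In males it measured 60.2, 23.8, 14.8 and 43.1 CPM on 10% fat and 3.38, 2.9, 2.53 and 2.9 CPM on 44% fat. Every male on 44% fat was below every male on 10% fat, with a log2 fold change of -3.61, and the female groups overlapped, with one of 1.16. The difference was 4.76 (adjusted p = 0.00718).

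Ddah1, which degrades asymmetric dimethylarginine, measured 84.2, 97.4, 78.6 and 68.7 CPM in females on 10% fat and 69.1, 107, 99.1 and 134 CPM on 44% fat. In males it went from 11.7, 8.75, 16.8 and 25.5 CPM to 78.6, 50.8, 85.2 and 80.1 CPM. The male group on 44% fat thus reached the female range, and the difference of log2 fold changes was -1.92 (adjusted p = 1.92e-04). Hao2, a hydroxyacid oxidase expressed mostly in females here, measured 164, 164, 141 and 109 CPM in females on 10% fat and 158, 122, 105 and 144 CPM on 44% fat. In males it was 0.166 to 0.461 CPM on 10% fat and 0.529 to 5.01 CPM on 44% fat, and the difference was -3.69 (adjusted p = 0.0152). The call of Hao2 was lost without male 10% fat replicate 1 or 2 or male 44% fat replicate 4 (adjusted p up to 0.103), and in 4 of its 9 other alternatives, among them the run as covariate (0.000177 to 0.674 over all 25). Those of Foxq1 and Ddah1 held in all 16 refits that left out a NZO/HlLtJ library. The male libraries on 10% fat belong to runs 1 and 3 and those on 44% fat to runs 1 and 2. Within run 1 the differences were 4.29 for Foxq1, -2.71 for Ddah1 and -2.59 for Hao2. Within identifier run 1 Foxq1 was not called, and with the NZO/HlLtJ libraries fitted alone Ddah1 was not, at adjusted p of 0.501 and 0.19, the highest over their 25 alternatives, whose lowest were 1.17e-06 and 1.14e-08.

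In females of the other strains fewer genes were called: 17 were called in C57BL/6J (0.102%) and 33 in CAST/EiJ (0.198%). Of the 81 genes, 75 had the same sign in C57BL/6J females and 4 were called there, 4.94% of the 81 and 23.5% of the 17. In CAST/EiJ females 48 had the same sign and 1 was called, 1.23% of the 81 and 3.03% of the 33. The 75 higher genes had medians of 0.29 in C57BL/6J and 0.06 in CAST/EiJ, and some, such as Fitm1, were at or near 0 CPM in CAST/EiJ on both diets. No gene passed the test of the difference itself. Against C57BL/6J females edgeR called 0 genes with 997 at an unadjusted p under 0.05, and DESeq2 called 0. The smallest p there among eligible genes was that of Tstd1 (difference -1.37, adjusted p = 0.403). Against CAST/EiJ females edgeR called 0 with 1658 at an unadjusted p under 0.05, and DESeq2 called 65. The smallest adjusted p there, 0.0603, was shared by 7 genes. They were Col5a3 (difference 2.24), Ttc23 (1.15) and Dna2 (-0.86) of the 81, and Saa1 (-5.31), Sntb1, a syntrophin (0.89), Rnf14, a ubiquitin ligase (0.55), and Ipo9, an importin (0.43).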

How the data were processed

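Liver RNA was sequenced as polyadenylated, paired-end libraries with added spike-in RNA, per the labels' protocols. The authors deposited a table of expected counts, the estimates of a counting tool, of which 20.3% were not whole numbers. They also deposited log2 values, variance-stabilized by the authors before deposit, per the file itself; these served only in an alternative. The deposited annotation gave symbols and GRCm38 coordinates. Per the submitters' processing notes, the build was GRCm38 and DESeq2 was used. Aligner, counting tool and strand setting: not given in the sources used here.

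After rounding, the table was tested with edgeR 4.0.16 under R 4.3.3: filterByExpr over 12 groups of strain, sex and diet kept 16650 of 20320 genes, with TMM scaling and a robust quasi-likelihood fit of all 47 libraries by 12 group means (35 residual degrees of freedom). P-values were Benjamini-Hochberg adjusted over all tested genes, and the SE is the log2 fold change divided by the square root of F. DESeq2 1.42.0 and limma 3.58.1 served as alternatives. All genes in the table had counts in at least 24 libraries, so genes seen in fewer are not analysed here. In simulated data on 16650 genes this comparison recovered 36%, 54%, 82% and 86% of 1.5-, 2-, 3- and 4-fold changes. In those data 3.01% of calls were false. Whether these rates hold for the real libraries, with uneven replicates and runs that partly follow diet, was not tested. The closest replicate pair had a chi-square of 19.4 per gene, and all 8 libraries were kept as separate. Replicate numbers follow accession order.

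Members, gene lists and naming rule were chosen with earlier results of these data known. The rule took, among genes of at least 1 CPM with a unique symbol that is not a Gm or Rik name, the called genes with the 15 highest and 15 lowest log2 fold changes, the 10 most abundant called genes in each direction, called members of each list (at most 6, or the 2 of smallest p), called interaction genes (or the 3 of smallest p), and genes such as Cidea, Plin2 and Xist. Some genes are not reported here. Called genes outside it were named after their values were seen.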

Additional observations from a re-analysis of the deposited data

Results flagged for a closer look

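The test of the difference between NZO/HlLtJ females and males singled out Foxq1 (4.76), Ddah1 (-1.92) and Hao2 (-3.69), as female minus male log2 fold changes. In Foxq1 the female and male diet effects had opposite signs, with a called fall in males and no call in females. In Ddah1 and Hao2 the change was in males, from a level below that of females.

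In 10 other cases 1 library lay far from the other 3 of its diet group, by a gap that exceeded Dixon's critical value for 4 samples. Chance gives this in about 1 in 20 groups. Both diet groups of many named genes were screened, where the group mean was at least 1 CPM, so several such cases can arise by chance. Whether the 10 exceed that number was not tested. Replicate 1 on 44% fat was low for Clstn3 (2.05 CPM against 7.02 to 7.67), Ghitm (324 against 355 to 360) and Pgd (59.2 CPM) and high for Apom (163 against 141 to 143). Replicate 3 on 10% fat was high for Apoa1 (8780 against 4120 to 4890) and low for Ccng1 (26.9 against 34.5 to 35.4). Replicate 1 on 10% fat was low for Gpi1 (165 against 180 to 182). Saa1 was high in 10% fat replicate 4 (198 against 10.1 to 27.7). On 44% fat, Pck1 was low in replicate 2 (703 against 1180 to 1260), and the clock gene Per3 was high in replicate 4 (63.8 against 6.22 to 11.1). That library also had the highest clock score of the 8, 2.05 against -2.62 to -0.78, where the score is the mean standardized level of Dbp and Ciart minus that of Arntl and Npas2.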

How the results depend on the processing

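No paired analysis was possible because the labels give no replicate numbers. The female diet count of 81 stayed within 1.5 times under RLE scaling, both filters, NZO/HlLtJ or NZO/HlLtJ females fitted alone, the clock score and 2 libraries left out together (56 to 96), but with NZO/HlLtJ or its females fitted alone 36 and 37 of the 81 genes were called. It was 50 with the run as covariate, 0 within run 1, 228 by DESeq2, 125 by limma on the deposited values, and 17 to 172 with a library left out. The sex-by-diet count of 3 became 1 within run 1, 41 by DESeq2, 7 by limma, and 2 to 18 with a library left out (18 without male 44% fat replicate 3, 14 without male 10% fat replicate 3). Against C57BL/6J it became 53 within run 1, where each C57BL/6J group has 1 library, and 2 by limma. Against CAST/EiJ it became 9 with the stricter filter, 1 with the clock score, 3 within run 1, 65 by DESeq2, 18 by limma, and 0 to 12 with a library left out (12 without 44% fat replicate 1). For these moves the cause was not tested. Leaving out the 2 libraries together (10% fat replicate 3, 44% fat replicate 1) and each male library was chosen after seeing the data.

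No called gene changed sign. Among uncalled genes, within run 1 the log2 fold change was -0.33 for Cyp7a1, -0.049 for Ddah1, -0.084 for Fgf21, -0.52 for Plin2 and 1.44 for Saa1. Plin2, at 0.00 in the main comparison, was -0.00147 with no filter and -0.00375 with the stricter one, -0.00263 and -0.0052 with NZO/HlLtJ or its females alone, -0.012 with the run and -0.021 with the clock score. Fgf21 was -0.00111 by limma, and with 2 libraries left out Cyp7a1 was -0.036 and Srebf1 -0.049. With 1 library left out the ranges were -0.12 to 0.65 (Cyp7a1), -0.21 to 0.26 (Fgf21), -0.10 to 0.22 (Pck1), -0.00893 to 1.80 (Per3), -0.24 to 0.50 (Plin2), -1.65 to 0.63 (Saa1) and -0.065 to 0.47 (Srebf1). These genes also kept their adjusted p above the threshold in those fits. In data simulated without run effects or uneven libraries, 1.5-fold changes were recovered in 36% of cases, so uncalled genes are not shown to be unchanged.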

Other observations

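Several pairs of called genes lay within 200000 bases of each other. Lrrc28 and Ttc23, 2142 bases apart on chromosome 7 and transcribed away from each other, rose by 1.10 and 1.03 on the log2 scale. Cml5 and Nat8, related N-acetyltransferase genes 9416 bases apart on chromosome 6, rose by 2.91 and 1.96, and shared reads between such relatives could be split differently. Gm14418 and Gm14403 on chromosome 2 rose by 1.30 and 0.96, and neither was called with the run as a covariate (adjusted p = 0.0633 and 0.0662). Igfbp2 and Igfbp5 on chromosome 1 moved in opposite directions.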
